A study of Homo sapiens with 12 samples.

Results

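The BAF complex, the mammalian SWI/SNF chromatin remodeller, was followed here through the transcripts of its subunit genes in 2 human germ cell tumour lines. The 30 subunit genes were taken by gene symbol from a table of 63241 genes, and each symbol matched 1 row. Of the 30, 29 passed the low-count filter and were among the 15614 genes tested, and ACTL6B did not pass. The 4 groups were TCam-2 with I-BRD9, TCam-2 with DMSO, 2102 EP with I-BRD9 and 2102 EP with DMSO, with 3 libraries in each. TCam-2 is a seminoma line grown in RPMI and 2102 EP an embryonal carcinoma line grown in DMEM, so that the line and its medium cannot be told apart. Both are labelled wild type. I-BRD9, which binds the bromodomain of the BAF subunit BRD9, was given at 15 µM, and DMSO was its solvent; all cells were taken at 24 h. Each tumour type was represented by 1 established line. The labels call the replicates biological without saying whether they were separate cultures, so that p-values measure the spread between these libraries, which may be technical.

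BAF complexes use the energy of ATP to slide or evict nucleosomes and thereby open enhancers and promoters. Every complex is built on an ATPase, SMARCA4 or SMARCA2, and a shared core, to which assembly-specific subunits are added. Canonical BAF carries ARID1A or ARID1B and a DPF protein, polybromo BAF carries ARID2, PBRM1, BRD7 and PHF10, and non-canonical BAF carries BRD9 with BICRA or BICRAL and lacks SMARCB1. Many positions are filled by 1 of a few paralogs, and exchange of these paralogs accompanies differentiation, for example in the nervous system. By these known memberships, 9 of the genes encode subunits of all 3 assemblies, 5 are shared by canonical and polybromo BAF, 7 belong to canonical BAF only, 2 are shared by canonical and non-canonical BAF, 4 belong to polybromo BAF only and 3 to non-canonical BAF only.

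The deposited values were estimated counts of transcript 3′ ends, expressed here as CPM, counts scaled to library size after TMM. Libraries are numbered by replicate. A 3′ end is counted once per transcript, so that CPM can be set side by side between genes without dividing by length. Library totals lay between 7290335 and 10053366, and the subunit genes took 0.236% to 0.26% of them. In a single library 3 counts corresponded to 0.297 to 0.409 CPM. Replicates had Pearson r of 0.971 to 0.981 across genes and differed by more than sampling noise. Markers separated the lines, though not every listed gene did so in the direction of its list. The seminoma genes SOX17 and PRAME averaged 192.8 and 151 CPM in TCam-2 with DMSO, against 0.0774 and 0.0786 CPM in 2102 EP with DMSO, and the embryonal carcinoma gene SOX2 averaged 17.1 CPM in TCam-2 against 468 CPM in 2102 EP with DMSO. Of the same embryonal carcinoma list, NANOG averaged 524 CPM in TCam-2 against 175 CPM in 2102 EP with DMSO, and POU5F1 695 CPM in TCam-2 against 386 CPM in 2102 EP. Markers also moved with I-BRD9. The summed level of 7 neuronal genes, most of it TUBB3, was 309 to 347 CPM with I-BRD9 against 80.6 to 104 CPM with DMSO in TCam-2, and 351 to 411 CPM against 102 to 109 CPM in 2102 EP. TUBB3 alone averaged 304 CPM with I-BRD9 and 71.8 CPM with DMSO in TCam-2. Of the same list, GAP43, ELAVL3 and SYT1 averaged lower with I-BRD9 in TCam-2, and SYT1 also in 2102 EP. The sum of 6 embryonal carcinoma genes was 488 to 501 CPM against 1504 to 1583 CPM in TCam-2, and 1332 to 1397 CPM against 2852 to 2948 CPM in 2102 EP. The sum of 6 seminoma genes, most of it TFAP2C, was 1141 to 1305 CPM against 1380 to 1876 CPM in TCam-2, and 102.9 to 118.1 CPM against 119.7 to 198.9 CPM in 2102 EP. KIT of that list averaged higher with I-BRD9, at 49.4 against 26.5 CPM in TCam-2 and 1.706 against 1.295 CPM in 2102 EP. For 5 fibroblast genes the sum was 87.7 to 134 CPM against 166 to 178 CPM in TCam-2, and 20.4 to 22.8 CPM against 16.4 to 21.9 CPM in 2102 EP. Blood and somatic testis markers summed to at most 3.61 and 12.3 CPM in any library. Of the blood list, HBB was at 0 in every group. The part of these marker shifts in the results on the subunit genes was not tested. In bulk RNA, fewer cells of a type and less RNA per cell cannot be told apart.

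The subunit genes spanned a wide range of levels. Averaged over the 12 libraries, 6 were above 100 CPM, 18 lay between 10 and 100 CPM and 6 were under 10 CPM. The most abundant were SMARCA4 (419.7 CPM), the scaffold gene SMARCC1 (418 CPM), the polybromo bromodomain gene BRD7 (348 CPM) and SMARCE1 (266 CPM), a DNA-binding subunit. At the other end stood SMARCD3 (1.60 CPM), BICRA (1.63 CPM), BICRAL (2.78 CPM), DPF3 (4.30 CPM) and SS18L1 (7.86 CPM). ACTL6B, the actin-related subunit that replaces ACTL6A in neurons, had 1 count in TCam-2 with I-BRD9, 0 with DMSO, 2 counts in 2102 EP with I-BRD9 and 2 with DMSO, summed over the 3 libraries of each group. Over a group, 3 counts correspond to 0.111 to 0.12 CPM, so that ACTL6B stayed below what this depth can compare.

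Counts were compared with edgeR's quasi-likelihood test, and a gene was called at a Benjamini-Hochberg adjusted p under 0.05 over all genes tested. In TCam-2, 10 of 29 subunit genes were called between I-BRD9 and DMSO (34.5%, against 31.8% of all genes), 5 of them higher with I-BRD9 and 5 lower (15.3% and 16.5% of all genes). In 2102 EP, 15 of 29 were called (51.7%, against 36.8% of all genes), 4 higher and 11 lower (18.2% and 18.6% of all genes). The shares over all genes, here and below, were not matched to the subunit genes for expression level. The counts of subunit genes called moved with the libraries fitted. On the 6 libraries of 1 line alone, edgeR called 12 of 29 in TCam-2 (38.8% of all genes) and 11 of 29 in 2102 EP (37% of all genes). Without I-BRD9 library 1 or 2 it called 6 of 29 in TCam-2 (25.8% and 25.7% of all genes), and without I-BRD9 library 3 it called 9 of 29 in 2102 EP (33.1% of all genes). The median log2 fold change of the 29 genes was −0.14 in TCam-2 and −0.18 in 2102 EP, beside 0.01 and 0.00 over all genes. In each line 13 of the 29 had I-BRD9 libraries that did not overlap the DMSO libraries, beside 45.7% of all genes in TCam-2 and 46.3% in 2102 EP. The lines shared 9 called genes, which were 90% of the TCam-2 calls and 60% of the 2102 EP calls, beside 58.3% and 50.4% over all genes. Of these 9, SMARCD3 and PBRM1 rose in both lines, BCL7A, ARID1A, ARID1B, DPF1 and BCL11B fell in both, and SMARCA2 and BCL11A moved in opposite directions. Only DPF1, BCL11B and SMARCA2 kept their calls in both lines under every other setting and with any single library left out. Opposite directions were seen in 2 of the 9 subunit genes called in both lines (22.2%). Over the whole table they were seen in 9.45% of the 2890 genes called in both lines. The BCL11A call in TCam-2 (edgeR adjusted p = 0.0448) was lost in 10 of 14 alternative fits. A test of the difference between the effects in the lines called 7 of the 29 subunit genes, beside 13.1% of all genes, 5 with a more positive response in TCam-2 and 2 with a more negative one (5.90% and 7.19% of all genes).

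**Figure D1:**
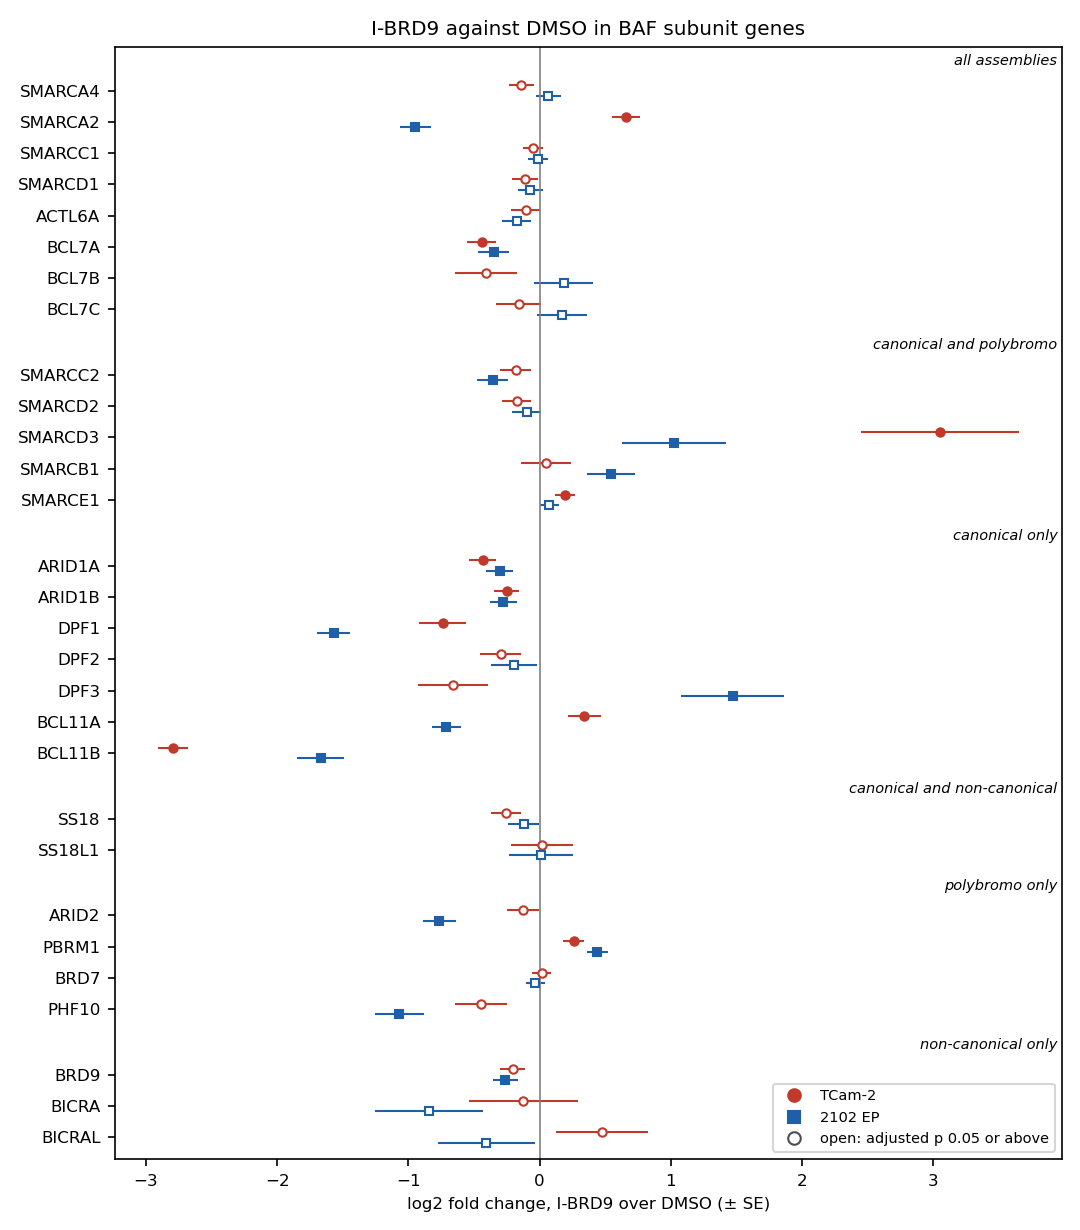
Log2 fold change of I-BRD9 over DMSO (± SE from the edgeR model) for the 29 tested subunit genes, grouped by assembly, with circles for TCam-2, squares for 2102 EP and open symbols for an adjusted p of 0.05 or above. BCL11B at −2.79 (TCam-2) and −1.67 (2102 EP) lies farthest to the left, SMARCD3 at 3.05 (TCam-2) farthest to the right, and SMARCA2 and BCL11A fall on opposite sides of 0 in the lines.

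Of the 8 tested genes whose products sit in all 3 assemblies, SMARCA2 and BCL7A were called in each line and the other 6 in neither. SMARCA2 (ENSG00000080503, chromosome 9, 1980290 to 2193624, plus strand, GRCh38) encodes BRM, the alternative ATPase. Its level in TCam-2 was 82.7, 80.2 and 71.7 CPM with I-BRD9 and 47.7, 53.2 and 47.9 CPM with DMSO. In 2102 EP it was 24.0, 19.1 and 17.2 CPM with I-BRD9 and 39.1, 37.1 and 39.4 CPM with DMSO. Every I-BRD9 library thus lay above every DMSO library in TCam-2 and below every DMSO library in 2102 EP. SMARCA2 rose in TCam-2 by 0.66 ± 0.11 on the log2 scale (± model SE; edgeR adjusted p = 4.4e-05) and fell in 2102 EP (−0.95 ± 0.12, edgeR adjusted p = 1.21e-06). The difference between the effects was 1.60 ± 0.16 on the log2 scale (edgeR adjusted p = 1.65e-07). SMARCA4, the ATPase gene BRG1, was far more abundant and was not called in either line. It averaged 437 ± 26.4 CPM with I-BRD9 and 482 ± 30.8 CPM with DMSO in TCam-2, and 388 ± 60.6 CPM with I-BRD9 and 371 ± 23.9 CPM with DMSO in 2102 EP (SD, n = 3 each). SMARCA2 was therefore 15.2% ± 1.25 of the counts of the 2 ATPase genes with I-BRD9 and 9.34% ± 0.521 with DMSO in TCam-2, and 4.91% ± 0.0895 with I-BRD9 and 9.42% ± 0.456 with DMSO in 2102 EP (SD, n = 3 each). The I-BRD9 and DMSO shares did not overlap in either line, and the exact permutation test gave p = 0.1 in each, the smallest p that 3 against 3 libraries allow (adjusted over 64 share tests, 0.178). The summed ATPase level was 515 ± 27.2 CPM with I-BRD9 and 531 ± 32.5 CPM with DMSO in TCam-2, and 409 ± 64.1 CPM with I-BRD9 and 410.0 ± 24.6 CPM with DMSO in 2102 EP, ranges that overlapped in both lines.

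SMARCA2 has several annotated transcription starts, which 3′ counts cannot tell apart, so that the changes above cover transcripts from all of them. RefSeq (GRCh38.p14) gives 4 starts, of which the 2 shown here have the most CpG sites in the 250 bases before the start. Capitals mark GC boxes, the letters GGGCGG or their reverse complement CCGCCC. The first window, chr9:2015097-2015346 on the plus strand, holds 2 GC boxes and 29 CpG sites, and the internal one, chr9:2158214-2158463 on the plus strand, holds no GC box and 8 CpG sites.
SMARCA2, first start: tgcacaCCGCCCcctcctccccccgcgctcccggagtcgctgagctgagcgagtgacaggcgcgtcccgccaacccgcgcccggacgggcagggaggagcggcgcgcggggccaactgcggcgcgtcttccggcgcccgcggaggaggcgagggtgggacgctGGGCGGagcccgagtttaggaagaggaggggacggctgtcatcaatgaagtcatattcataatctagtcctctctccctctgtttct
SMARCA2, internal start: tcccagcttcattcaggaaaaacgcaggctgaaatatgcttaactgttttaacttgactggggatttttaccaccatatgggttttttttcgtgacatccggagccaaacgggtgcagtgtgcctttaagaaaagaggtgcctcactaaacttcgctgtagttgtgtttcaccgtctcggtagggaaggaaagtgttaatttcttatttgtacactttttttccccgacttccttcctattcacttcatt
A GC box was found in 63.8% of the 47 windows that matched 26 subunit genes, and in 42.6% of all 35116 promoter windows of the same length. The motif TATAAA was in 6.4% of the subunit windows and in 10.7% of all windows. The median number of CpG sites was 21 in the subunit windows and 11 in all windows.

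BCL7A encodes a small nucleosome-contacting subunit. It had 55.9, 50.5 and 44.8 CPM with I-BRD9 and 67.9, 68.7 and 68.9 CPM with DMSO in TCam-2, without overlap, and 31.8, 26.9 and 23.5 CPM with I-BRD9 and 31.3, 38.0 and 35.3 CPM with DMSO in 2102 EP, where the groups overlapped. The log2 fold change was −0.44 ± 0.11 in TCam-2 (edgeR adjusted p = 0.00345) and −0.35 ± 0.12 in 2102 EP (edgeR adjusted p = 0.0239). The edgeR call in 2102 EP was lost when I-BRD9 library 2 or 3 (adjusted p = 0.0669 and 0.136) or DMSO library 2 or 3 (0.109 and 0.0557) was left out, and in a fit on that line alone (0.0537). Its relatives BCL7B and BCL7C were not called in either line. BCL7B had 15.1, 30.0 and 32.8 CPM in the 2102 EP libraries with I-BRD9 and 23.0, 21.8 and 24.3 CPM with DMSO, and library 1 with I-BRD9 stood apart from the others. Without that library, edgeR called BCL7B higher with I-BRD9 in 2102 EP (log2 fold change 0.46, adjusted p = 0.023) and called the difference between the lines (−0.88, adjusted p = 0.00664). The scaffold gene SMARCC1 ranged from 363 to 502 CPM over the 12 libraries, the actin-like gene ACTL6A from 35.8 to 68.3 CPM, and SMARCD1 had log2 fold changes of −0.11 in TCam-2 and −0.07 in 2102 EP. The last exons of ACTL6A overlap MRPL47 on the opposite strand, and the use of strand in the counting is not given in the sources used here. MRPL47 had a log2 fold change of −0.30 in TCam-2 (edgeR adjusted p = 0.0502) and fell in 2102 EP (−0.62, edgeR adjusted p = 0.000197), where ACTL6A had 56.2, 54.6 and 63.8 CPM with I-BRD9 and 68.3, 64.4 and 64.6 CPM with DMSO, without overlap, and was not called (−0.18, edgeR adjusted p = 0.216).

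Of the 5 genes shared by canonical and polybromo BAF, SMARCD3 and SMARCE1 were called in TCam-2, both higher, and SMARCD3, SMARCB1 and SMARCC2 in 2102 EP, the last lower. SMARCD3 encodes BAF60C, the form of the SMARCD subunit known from heart and skeletal muscle and from neurons. Its counts in TCam-2 were 24, 14 and 17 with I-BRD9 and 3, 1 and 2 with DMSO, and in 2102 EP they were 21, 27 and 25 with I-BRD9 and 10, 11 and 13 with DMSO. All I-BRD9 libraries lay above all DMSO libraries in both lines, at levels between 1.68 and 2.86 CPM. The ratio of summed counts, scaled to library size, was 8.83 in TCam-2 (95% counting interval 3.81 to 25.1) and 2.05 in 2102 EP (1.34 to 3.17), intervals that cover counting error only. The fitted log2 fold change was 3.05 ± 0.60 in TCam-2 (edgeR adjusted p = 8.57e-05) and 1.02 ± 0.40 in 2102 EP (edgeR adjusted p = 0.0453). The 2102 EP call was lost in edgeR when any 1 of the 6 libraries of that line was left out, with adjusted p between 0.0554 and 0.135. It was also lost in edgeR with the replicate number (0.0593) or runs of library codes (0.0667) as a block and with no low-count filter (0.129), and in DESeq2 (0.0661). The difference between the lines was 2.03 ± 0.72 on the log2 scale (edgeR adjusted p = 0.0484), and in edgeR it was lost without any 1 of the 6 libraries of 2102 EP (0.0578 to 0.102), without TCam-2 I-BRD9 library 1, 2 or 3 (0.109, 0.0581 and 0.0779) and without TCam-2 DMSO library 2 or 3 (0.15 and 0.0832). Both blocks (0.0696 and 0.0736), no low-count filter (0.122), DESeq2 (0.0803) and limma voom (0.0638) also took the adjusted p of that difference past the threshold. SMARCD3 remained at most 1.71% of the counts of the 3 SMARCD genes in any library.

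SMARCB1, the core subunit lost in rhabdoid tumours, had 11.4, 13.8 and 10.3 CPM with I-BRD9 and 13.0, 12.3 and 8.94 CPM with DMSO in TCam-2, with overlap. In 2102 EP it had 25.0, 20.8 and 19.97 CPM with I-BRD9 and 17, 11.2 and 16.7 CPM with DMSO, without overlap. The log2 fold change was 0.05 ± 0.19 in TCam-2 (edgeR adjusted p = 0.885) and 0.54 ± 0.18 in 2102 EP (edgeR adjusted p = 0.0212), and the 2102 EP call was lost in edgeR without I-BRD9 library 1 (adjusted p = 0.0692) or DMSO library 2 (0.142). SMARCE1 had 237, 251 and 219.8 CPM with I-BRD9 and 202, 211 and 206 CPM with DMSO in TCam-2. Its 2102 EP values were 331, 310.4 and 313 CPM with I-BRD9 and 285, 306 and 316 CPM with DMSO. The groups overlapped in 2102 EP and not in TCam-2. The rise in TCam-2 was small (0.19 ± 0.07, edgeR adjusted p = 0.0482) and was lost in edgeR when I-BRD9 library 1 or 2 (adjusted p = 0.124 and 0.226) or DMSO library 1, 2 or 3 (0.151, 0.0846 and 0.109) was left out, and with the replicate block (0.0645), the library-code block (0.0599) or no low-count filter (0.127). SMARCE1 shared reads with other genes in 11 of 12 libraries, which makes its value uncertain. SMARCC2, the second scaffold gene, had 54.7, 50.2 and 39.5 CPM with I-BRD9 and 54.3, 57.5 and 52.2 CPM with DMSO in TCam-2. Its level in 2102 EP was 50.6, 40.3 and 37.1 CPM with I-BRD9 and 53.2, 54.6 and 55.7 CPM with DMSO. The groups did not overlap in 2102 EP, where SMARCC2 fell (−0.36 ± 0.12, edgeR adjusted p = 0.0225). That edgeR call did not hold when I-BRD9 library 2 or 3 (adjusted p = 0.0873 and 0.12) or DMSO library 2 or 3 (0.0525 and 0.0583) was left out. The last exons of SMARCC2 overlap MYL6 on the opposite strand, a gene with 78338 counts in all against 5210 for SMARCC2. MYL6 itself had log2 fold changes of −0.12 in TCam-2 and 0.06 in 2102 EP and was not called. SMARCD2 ranged from 61.4 to 108 CPM and was not called between I-BRD9 and DMSO in either line.

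Most called changes in the genes of canonical BAF only were falls, with 1 called rise in each line. Of these 7, BCL11A rose and ARID1A, ARID1B, DPF1 and BCL11B fell in TCam-2, and DPF3 rose and ARID1A, ARID1B, DPF1, BCL11A and BCL11B fell in 2102 EP. BCL11B (ENSG00000127152, chromosome 14, 99169287 to 99271524, minus strand) encodes a zinc-finger protein that binds DNA, is known from T-cell and neuronal development and joins canonical BAF. It had 15.3, 16.6 and 13.6 CPM with I-BRD9 and 106, 104 and 104 CPM with DMSO in TCam-2. The 2102 EP libraries had 2.59, 2.80 and 3.79 CPM with I-BRD9 and 9.04, 11 and 9.46 CPM with DMSO. The groups were far apart in both lines. BCL11B fell in TCam-2 by a log2 fold change of −2.79 ± 0.12 (edgeR adjusted p = 2.8e-14), which left 0.144 of its DMSO level. In 2102 EP the log2 fold change was −1.67 ± 0.18 (edgeR adjusted p = 6.72e-08), which left 0.314. The fall was deeper in TCam-2, with a difference of −1.12 ± 0.21 (edgeR adjusted p = 0.000792).

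BCL11B, 1 of 5 subunit genes called lower in both lines, had the lowest log2 fold change in each and is shown with its promoter. RefSeq gives it 1 start, and the 250 bases before it, chr14:99272198-99272447 on the minus strand (GRCh38.p14), hold no GC box and 17 CpG sites. They hold 1 match to CACGTG, which was found in 6.4% of the subunit windows and in 6.3% of all windows and which reads the same on both strands. Capitals, which would mark a GC box, are absent.
BCL11B: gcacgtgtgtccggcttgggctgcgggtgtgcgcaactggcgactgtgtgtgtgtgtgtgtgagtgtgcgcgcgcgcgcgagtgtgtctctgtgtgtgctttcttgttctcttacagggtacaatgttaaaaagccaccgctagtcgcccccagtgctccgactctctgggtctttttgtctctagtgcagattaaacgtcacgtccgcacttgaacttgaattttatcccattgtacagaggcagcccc
The absence of a GC box says only that these letters are not in this window. The window lies outside the GENCODE span of BCL11B given above, which ends at 99271524. The bases just after the RefSeq start were not found in a GENCODE transcript of the gene.

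BCL11A, the paralog of BCL11B and a repressor of fetal globin genes in red cell precursors, went the other way in TCam-2. It had 18.9, 17.8 and 20.4 CPM with I-BRD9 and 13.2, 17.2 and 14.6 CPM with DMSO in TCam-2. In 2102 EP it had 38.2, 38.9 and 32.4 CPM with I-BRD9 and 62.3, 56.8 and 59.8 CPM with DMSO. No library of 1 group overlapped the other in either line. The log2 fold change was 0.34 ± 0.13 in TCam-2 (edgeR adjusted p = 0.0448) and −0.71 ± 0.11 in 2102 EP (edgeR adjusted p = 2.98e-05), with a difference of 1.05 ± 0.17 (edgeR adjusted p = 0.000131). Leaving out I-BRD9 library 1, 2 or 3 took the edgeR adjusted p in TCam-2 to 0.0937, 0.0528 and 0.143, and leaving out DMSO library 1 or 3 took it to 0.2 and 0.116. DESeq2 and limma voom did not call the TCam-2 change (adjusted p = 0.0617 and 0.0687), nor did edgeR with the replicate block (0.0592), with no low-count filter (0.0729) or on that line alone (0.0658). BCL11B made up 44.3% ± 4.18 of the counts of the BCL11 pair with I-BRD9 and 87.5% ± 1.58 with DMSO in TCam-2, and 7.86% ± 2.29 with I-BRD9 and 14.2% ± 1.81 with DMSO in 2102 EP (SD, n = 3 each; exact permutation p = 0.1 in each line, the smallest possible). The summed level of the pair was 34.2 ± 0.189 CPM with I-BRD9 and 120.0 ± 1.23 CPM with DMSO in TCam-2, and 39.5 ± 2.96 CPM with I-BRD9 and 69.5 ± 1.80 CPM with DMSO in 2102 EP. With I-BRD9 BCL11A was the larger part on average in TCam-2, and with DMSO the BCL11 mRNA of TCam-2 was mostly BCL11B.

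The DPF genes encode double PHD-finger readers of acetylated histone H3, of which DPF1 and DPF3 are known from neurons and DPF2 is widely expressed. DPF1 had 4.35, 5.17 and 6.73 CPM with I-BRD9 and 9.09, 7.43 and 10.5 CPM with DMSO in TCam-2. Its level in 2102 EP was 31.6, 28.6 and 27.3 CPM with I-BRD9 and 80.1, 81.8 and 97.8 CPM with DMSO. The groups did not overlap in either line, and DPF1 fell in TCam-2 (−0.74 ± 0.18, edgeR adjusted p = 0.00269) and in 2102 EP (−1.57 ± 0.13, edgeR adjusted p = 2.36e-09). The difference of 0.83 ± 0.22 (edgeR adjusted p = 0.0138) was lost in edgeR without TCam-2 I-BRD9 library 3 (adjusted p = 0.0885) or TCam-2 DMSO library 2 (0.0509). DPF3 had 5.93, 5.41 and 4.87 CPM with I-BRD9 and 9.21, 7.11 and 9.43 CPM with DMSO in TCam-2. The 2102 EP libraries had 17, 22 and 23 counts with I-BRD9 and 7, 3 and 11 counts with DMSO, a ratio scaled to library size of 2.81 (95% counting interval 1.69 to 4.86). DPF3 rose in 2102 EP (1.47 ± 0.39, edgeR adjusted p = 0.00365), and its log2 fold change in TCam-2 was −0.66 ± 0.27 (edgeR adjusted p = 0.062), without overlap of the libraries in either line. In TCam-2 DPF3 was called lower by limma voom (adjusted p = 0.0233) and by edgeR on the 6 libraries of the line (0.0165), opposite to 2102 EP. The difference was −2.13 ± 0.47 (edgeR adjusted p = 0.00257). DPF3 shared reads with other genes in 11 of 12 libraries and DPF2 in all 12, so that both are uncertain. DPF2 was not called in either line (−0.29 ± 0.16 in TCam-2 and −0.20 ± 0.18 in 2102 EP). In 2102 EP, DPF1 was 65.4% ± 4.57 of the DPF counts with I-BRD9 and 84.4% ± 3.95 with DMSO, and DPF2 29.3% ± 4.30 with I-BRD9 and 14.8% ± 4.25 with DMSO (SD, n = 3 each; exact permutation p = 0.1, the smallest possible). The summed DPF level was 40.2 ± 3.30 CPM with I-BRD9 and 53.6 ± 7.96 CPM with DMSO in TCam-2, and 44.6 ± 0.659 CPM with I-BRD9 and 102 ± 6.91 CPM with DMSO in 2102 EP.

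ARID1A and ARID1B encode the large DNA-binding subunits that define canonical BAF and exclude each other. ARID1A, often mutated in cancers, had 64.8, 66.4 and 70.4 CPM with I-BRD9 and 88.1, 87.6 and 96.6 CPM with DMSO in TCam-2. In 2102 EP it had 54.7, 71.5 and 62.4 CPM with I-BRD9 and 87.5, 70.9 and 75.2 CPM with DMSO. The groups overlapped in 2102 EP only, and ARID1A fell in TCam-2 (−0.43 ± 0.10, edgeR adjusted p = 0.00204) and in 2102 EP (−0.31 ± 0.10, edgeR adjusted p = 0.0227). The 2102 EP call was lost in edgeR when I-BRD9 library 1 or 3 (adjusted p = 0.138 and 0.0605) or DMSO library 1 (0.176) was left out, and in a fit on that line alone (0.0702). ARID1B had 60.02, 54.8 and 60.3 CPM with I-BRD9 and 69.4, 67.6 and 71.6 CPM with DMSO in TCam-2. Its level in 2102 EP was 28.6, 31.9 and 30.9 CPM with I-BRD9 and 40.2, 36.7 and 33.9 CPM with DMSO. No libraries overlapped, but the falls were small, −0.25 ± 0.09 in TCam-2 (edgeR adjusted p = 0.0411) and −0.28 ± 0.10 in 2102 EP (edgeR adjusted p = 0.0333). In TCam-2 leaving out any 1 of the 6 libraries of the line took the edgeR adjusted p to between 0.0598 and 0.162, and the replicate block (0.0546), the library-code block (0.0526), upper-quartile scaling (0.0718) and no low-count filter (0.105) each ended the call too. In 2102 EP leaving out I-BRD9 library 1 or 3 took it to 0.126 and 0.0636, and leaving out DMSO library 1 or 2 to 0.177 and 0.0709, and upper-quartile scaling (0.0689), no low-count filter (0.091) and a fit on that line alone (0.0888) ended the call. ARID1B shared reads with other genes in 7 of 12 libraries. The summed ARID1 level was 126 ± 4.80 CPM with I-BRD9 and 160.3 ± 6.98 CPM with DMSO in TCam-2, and 93.3 ± 10.0 CPM with I-BRD9 and 115 ± 11.2 CPM with DMSO in 2102 EP.

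**Figure D2:**
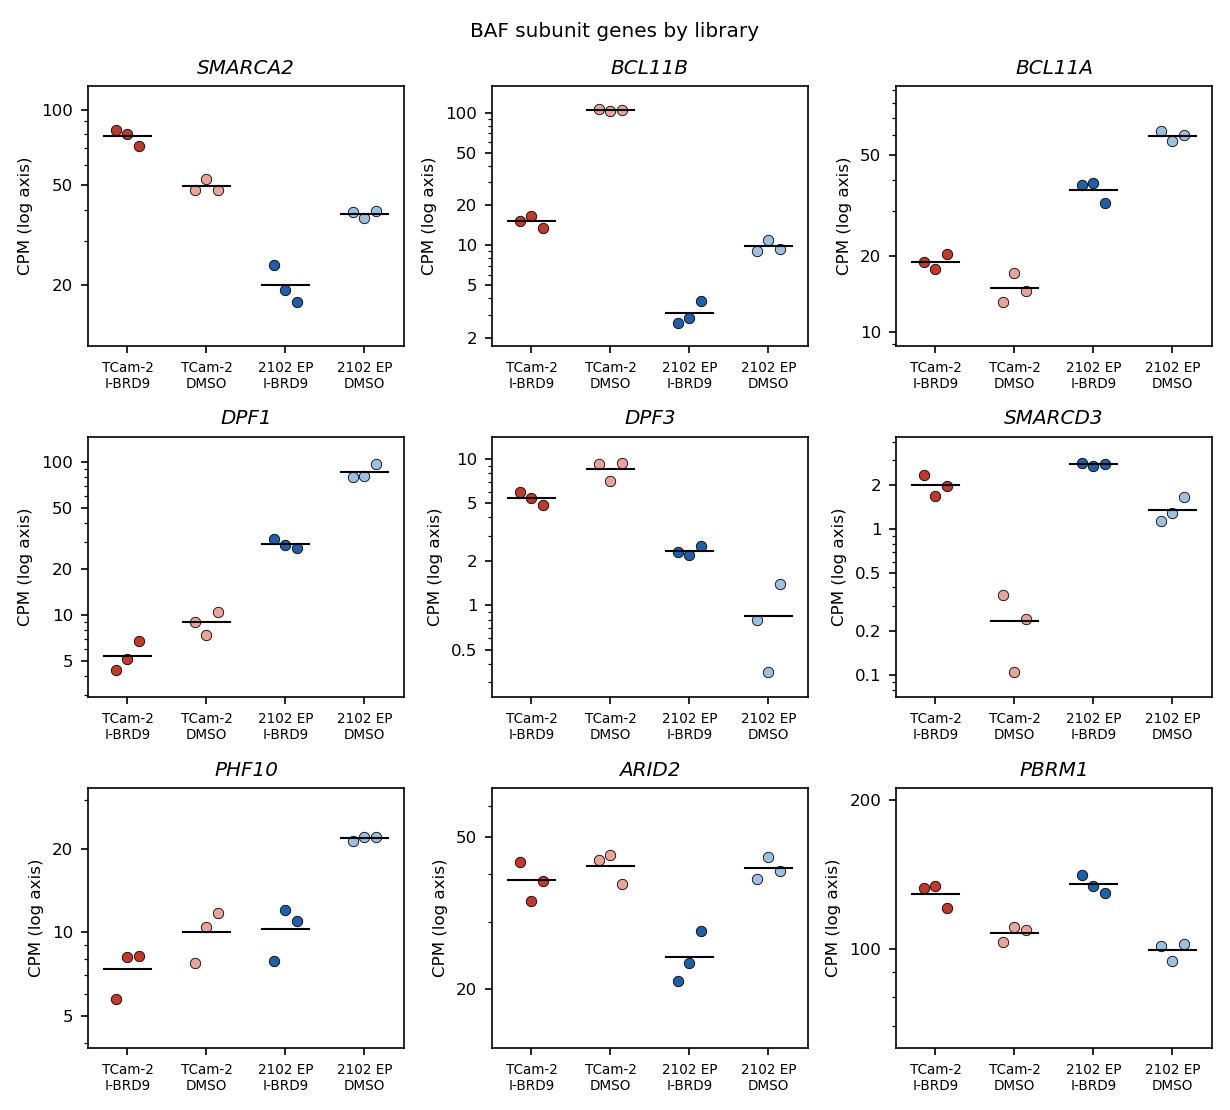
CPM in each library on log axes for 9 subunit genes, 1 panel a gene, with points for libraries and lines for group means (n = 3). BCL11B drops with I-BRD9 in both lines, SMARCA2 is higher with I-BRD9 in TCam-2 and lower in 2102 EP, and PBRM1 is higher with I-BRD9 in both.

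Polybromo BAF gave 1 called gene of 4 in TCam-2 and 3 of 4 in 2102 EP. PBRM1, whose product carries the tandem bromodomains that name this assembly, had 133, 134 and 121 CPM with I-BRD9 and 103, 111 and 109 CPM with DMSO in TCam-2. The 2102 EP libraries had 141, 134 and 130.0 CPM with I-BRD9 and 101, 94.7 and 102 CPM with DMSO. Every I-BRD9 library lay above every DMSO library, and PBRM1 rose in TCam-2 (0.26 ± 0.08, edgeR adjusted p = 0.0139) and in 2102 EP (0.44 ± 0.08, edgeR adjusted p = 0.000129). The TCam-2 call was lost in edgeR when I-BRD9 library 1 or 2 (adjusted p = 0.0623 and 0.0667) or DMSO library 1 (0.0713) was left out. ARID2, the polybromo counterpart of the ARID1 subunits, had 43.0, 33.9 and 38.4 CPM with I-BRD9 and 43.6, 44.7 and 37.6 CPM with DMSO in TCam-2. In 2102 EP it had 21.0, 23.4 and 28.3 CPM with I-BRD9 and 38.8, 44.3 and 40.8 CPM with DMSO. ARID2 libraries overlapped in TCam-2 (−0.13 ± 0.12, edgeR adjusted p = 0.472) and not in 2102 EP, where ARID2 fell (−0.76 ± 0.12, edgeR adjusted p = 4.44e-05). The difference was 0.64 ± 0.17 (edgeR adjusted p = 0.0153), lost in edgeR without 2102 EP DMSO library 2 (adjusted p = 0.0577), TCam-2 I-BRD9 library 1 (0.069) or TCam-2 DMSO library 3 (0.0563).

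PHF10, the PHD-finger subunit of polybromo BAF, had 5.73, 8.17 and 8.23 CPM with I-BRD9 and 7.79, 10.5 and 11.8 CPM with DMSO in TCam-2. Its level in 2102 EP was 7.91, 12 and 11 CPM with I-BRD9 and 21.4, 22.0 and 22.1 CPM with DMSO. The groups overlapped in TCam-2, with a log2 fold change of −0.45 ± 0.20 (edgeR adjusted p = 0.0949), and lay apart in 2102 EP, where PHF10 fell (−1.07 ± 0.19, edgeR adjusted p = 9.76e-05). Without TCam-2 DMSO library 1 the TCam-2 value was −0.61 (edgeR adjusted p = 0.0379). The difference between the lines was 0.62 ± 0.27 (edgeR adjusted p = 0.148). The last exons of PHF10 overlap C6orf120 on the opposite strand, which had log2 fold changes of 0.33 in TCam-2 and −0.04 in 2102 EP and was not called. BRD7 stayed between 307 and 368 CPM over the 12 libraries, with log2 fold changes of 0.02 ± 0.07 in TCam-2 and −0.03 ± 0.07 in 2102 EP, and it shared reads with other genes in every library.

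Among the genes of non-canonical BAF, BRD9, the protein that the compound binds, had 115, 129 and 125 CPM with I-BRD9 and 138, 142 and 145 CPM with DMSO in TCam-2. The 2102 EP libraries had 105, 89.6 and 83.1 CPM with I-BRD9 and 109, 100.2 and 123 CPM with DMSO. The groups did not overlap in TCam-2 and overlapped in 2102 EP. The log2 fold change of BRD9 was −0.21 ± 0.09 in TCam-2 (edgeR adjusted p = 0.0965) and −0.26 ± 0.09 in 2102 EP (edgeR adjusted p = 0.0328). The BRD9 call did not hold in edgeR when I-BRD9 library 2 or 3 (adjusted p = 0.105 and 0.166) or DMSO library 1 or 3 (0.0645 and 0.177) was left out, or with upper-quartile scaling (0.0712). In a fit on the 6 libraries of 1 line, edgeR called BRD9 in TCam-2 (adjusted p = 0.0335) and not in 2102 EP (0.0741). A transcript level does not measure how much of the protein was bound by the compound. BICRA and BICRAL, scaffold genes of this assembly, stayed between 0.954 and 4.29 CPM and were not called. BICRA had 7 to 23 counts in a library and a log2 fold change of −0.13 ± 0.42 in TCam-2 and −0.84 ± 0.41 in 2102 EP (edgeR adjusted p = 0.859 and 0.113). SS18 and SS18L1, shared by canonical and non-canonical BAF, were not called between I-BRD9 and DMSO in either line. SS18 had 53.6, 54.2 and 59.96 CPM with I-BRD9 and 69.2, 60.7 and 70.7 CPM with DMSO in TCam-2, without overlap (−0.26 ± 0.11, edgeR adjusted p = 0.0906), and on the 6 libraries of that line edgeR called it lower (adjusted p = 0.0314).

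Counted by assembly, the calls in TCam-2 were 5 of 7 in canonical BAF only, 1 of 4 in polybromo only and 0 of 3 in non-canonical only, and 2 of 5, 0 of 2 and 2 of 8 in the genes shared by canonical and polybromo, by canonical and non-canonical, and by all assemblies, beside 31.8% of all genes. In 2102 EP the counts were 6 of 7, 3 of 4 and 1 of 3 for the genes of 1 assembly and 3 of 5, 0 of 2 and 2 of 8 for the shared ones, beside 36.8% of all genes. The counts of 0 are those of edgeR's adjusted p. At an unadjusted p under 0.05, which 41.1% of all genes met in TCam-2 and 44.9% in 2102 EP, edgeR gave BRD9 in TCam-2 (1 of 3) and SS18 in TCam-2 (1 of 2), and neither SS18 nor SS18L1 in 2102 EP (0 of 2). DESeq2 and limma voom also called 0 of these genes in the same comparisons, and edgeR on the 6 TCam-2 libraries called BRD9 and SS18. The median log2 fold change of the genes of canonical BAF only was −0.43 in TCam-2 and −0.31 in 2102 EP. That of polybromo only was −0.05 in TCam-2 and −0.40 in 2102 EP, and that of non-canonical only −0.13 in TCam-2 and −0.41 in 2102 EP. No test between the assemblies was made, since the genes were grouped with earlier results known.

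Summed over the genes found in 1 assembly only, canonical BAF had 195, 198 and 206 CPM with I-BRD9 and 337, 321 and 343 CPM with DMSO in TCam-2. In 2102 EP the canonical sum was 169, 189 and 174 CPM with I-BRD9 and 298, 273 and 289 CPM with DMSO. The groups lay well apart in both lines. Most of that gap was BCL11B in TCam-2 and DPF1 in 2102 EP, as the values above show. The polybromo sum was 534, 544 and 525 CPM with I-BRD9 and 501, 531 and 515 CPM with DMSO in TCam-2, and 527, 509 and 477 CPM with I-BRD9 and 489.7, 511 and 514 CPM with DMSO in 2102 EP, overlapping in both lines. BRD7 gave most of it. That overlap in TCam-2 rested on TMM: scaled by library totals alone, the polybromo sum was 538 to 549 CPM with I-BRD9 and 485 to 508 CPM with DMSO in TCam-2, without overlap, while the other sums kept their overlap or gap in each line. The non-canonical sum, nearly all BRD9, was 119.8, 134 and 130.4 CPM with I-BRD9 and 143, 145 and 151 CPM with DMSO in TCam-2, and 108, 92.1 and 87.3 CPM with I-BRD9 and 113, 106 and 129 CPM with DMSO in 2102 EP, overlapping in 2102 EP only.

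**Figure D3:**
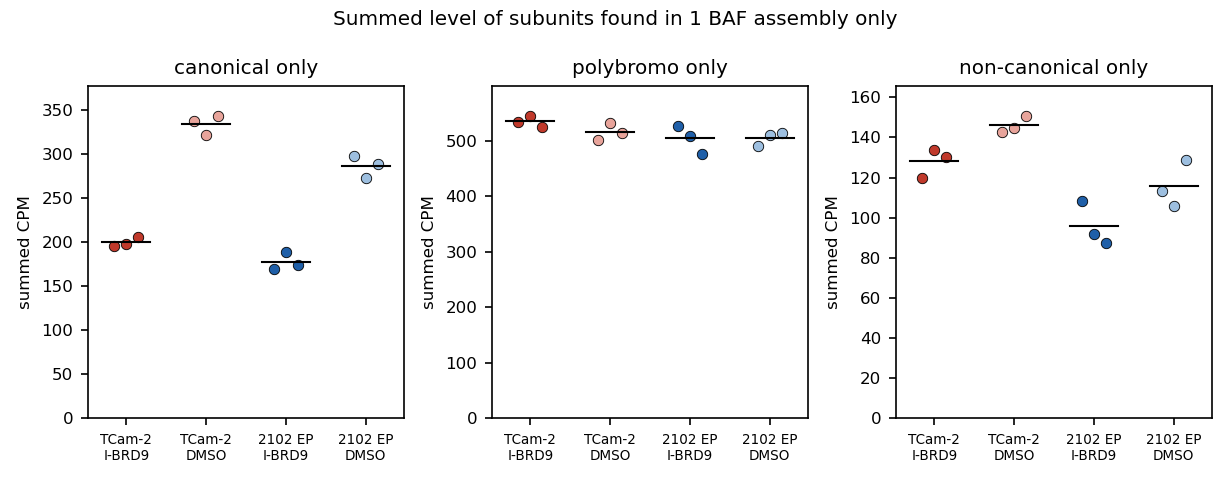
Summed CPM of the genes found in 1 assembly only, with points for libraries and lines for group means (n = 3). The canonical sum averages 199.97 CPM with I-BRD9 and 334 CPM with DMSO in TCam-2, and 177 CPM with I-BRD9 and 287 CPM with DMSO in 2102 EP, while the polybromo sums overlap, in TCam-2 with TMM scaling only.

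The subunit genes were also compared between the lines with the same treatment. With I-BRD9, 21 of 29 were called (72.4%, against 62.2% of all genes), 12 higher and 9 lower in TCam-2 (31.1% of all genes in each direction), and the lines did not overlap in 20 of 29 (66.3% of all genes). With DMSO, 19 of 29 subunit genes were called between TCam-2 and 2102 EP (65.5%, against 62.6% of all genes), 11 higher and 8 lower in TCam-2 (31.7% and 30.8% of all genes), and the lines did not overlap in 22 of 29 (67.6% of all genes). At least 2-fold apart and called were 7 genes with I-BRD9 (32.4% of all genes) and 9 with DMSO (33.4% of all genes). These shares lay near those of all genes. The comparisons within and between lines share libraries, so that their values are set side by side only. With I-BRD9 the log2 difference of TCam-2 over 2102 EP was 2.29 for BCL11B, 1.19 for DPF3, −2.44 for DPF1, −0.46 for SMARCD3 and −0.94 for BCL11A, and SMARCD3 was not called (edgeR adjusted p = 0.293). With DMSO it was 3.42 ± 0.12 for BCL11B (edgeR adjusted p = 2.2e-16), 3.32 ± 0.37 for DPF3 (1.31e-08), −3.27 ± 0.15 for DPF1 (8.65e-15), −2.49 ± 0.62 for SMARCD3 (0.000414) and −1.99 ± 0.12 for BCL11A (2.19e-12), each farther from 0 than with I-BRD9. These genes had the largest differences with DMSO, a choice that favours smaller values with I-BRD9. Other genes went the opposite way, among them ARID2 (0.66 with I-BRD9 and 0.02 with DMSO), SMARCB1 (−0.89 and −0.39) and BCL7B (−1.01 and −0.42). SMARCA2 differed by 1.97 ± 0.11 with I-BRD9 (edgeR adjusted p = 1.12e-12) and by 0.36 ± 0.11 with DMSO (edgeR adjusted p = 0.0062).

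**Figure D4:**
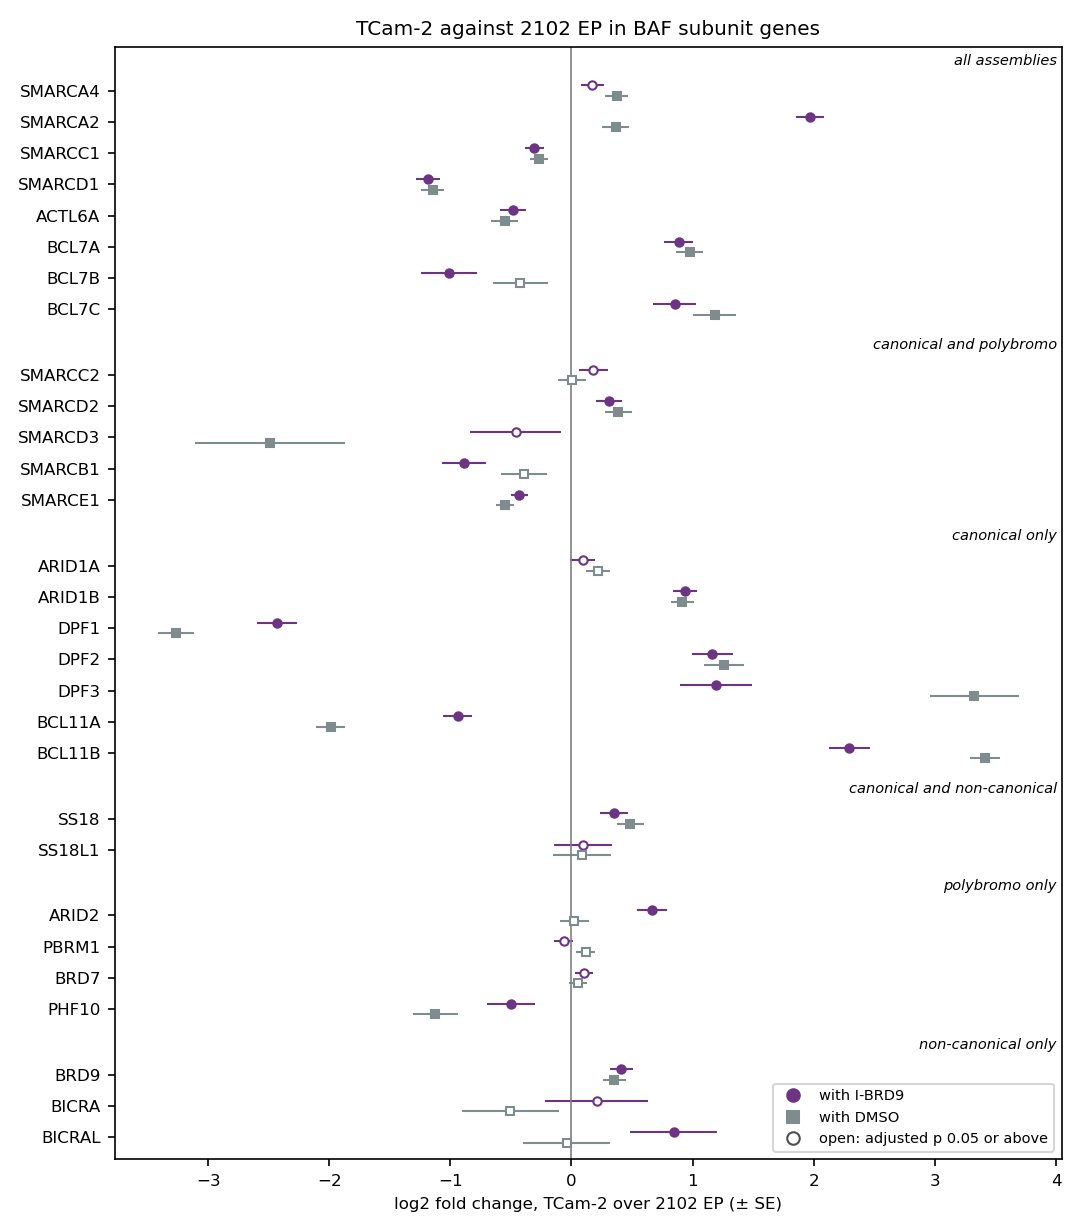
Log2 fold change of TCam-2 over 2102 EP (± SE from the edgeR model) for the 29 tested subunit genes, with circles for cells with I-BRD9, squares for cells with DMSO and open symbols for an adjusted p of 0.05 or above. BCL11B at 3.42 and DPF1 at −3.27 with DMSO lie near the ends of the axis, and SMARCA2 lies at 1.97 with I-BRD9 and 0.36 with DMSO.

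A further 4 genes differed more than 2-fold between the lines with at least 1 treatment and were not called between I-BRD9 and DMSO. SMARCD1, a BAF60 gene, had 50.8, 49.1 and 44.9 CPM with I-BRD9 and 58.5, 52.1 and 45.7 CPM with DMSO in TCam-2, and 112, 103 and 115 CPM with I-BRD9 and 125, 109 and 112 CPM with DMSO in 2102 EP. DPF2 had 26.2, 32.2 and 29.8 CPM with I-BRD9 and 41.9, 30.2 and 36 CPM with DMSO in TCam-2, and 11.2, 13.0 and 14.9 CPM with I-BRD9 and 18.2, 15.6 and 11.1 CPM with DMSO in 2102 EP. BCL7C had 12.6, 17.4 and 16.7 CPM with I-BRD9 and 19.4, 16.9 and 15.8 CPM with DMSO in TCam-2, and 8.32, 8.41 and 9.04 CPM with I-BRD9 and 6.06, 8.84 and 8.05 CPM with DMSO in 2102 EP. No library of SMARCD1, DPF2 or BCL7C in 1 line overlapped the other line with the same treatment. The log2 difference of TCam-2 over 2102 EP with DMSO was −1.15 ± 0.10 for SMARCD1, 1.26 ± 0.16 for DPF2 and 1.18 ± 0.18 for BCL7C (edgeR adjusted p = 7.2e-10, 6.28e-07 and 5.82e-06). With I-BRD9 it was −1.19 for SMARCD1, 1.16 for DPF2 and 0.85 for BCL7C, the last under 2-fold. BCL7B had 11.2, 11.9 and 15.9 CPM with I-BRD9 and 20.1, 14.8 and 16.8 CPM with DMSO in TCam-2, and it differed from 2102 EP by −1.01 ± 0.23 with I-BRD9 (edgeR adjusted p = 0.00134). The BCL7B libraries of the lines overlapped with I-BRD9, where 2102 EP library 1 had 15.1 CPM. With DMSO the difference was −0.42 and was not called (edgeR adjusted p = 0.122), though edgeR called it on the groups compared alone (0.0111), with no low-count filter (0.0177) and with the library-code block (0.049). PHF10 also passed 2-fold with DMSO, at −1.12 ± 0.19 (edgeR adjusted p = 1.83e-05). With I-BRD9 the calls of BICRAL, PHF10, SMARCD2 and SS18 were each lost in edgeR without 1 library or another, with adjusted p up to 0.223 for BICRAL, 0.178 for PHF10, 0.184 for SMARCD2 and 0.11 for SS18. The BICRAL call was also lost with upper-quartile scaling (0.0504), no low-count filter (0.0787) and DESeq2 (0.0573), and the PHF10 call in a fit on the groups compared (0.0656).

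As shares of counts, some paralog families lay apart between the lines and others overlapped. The shares of ACTL6B, SS18L1 and BICRAL in their families overlapped between the lines with both treatments (exact permutation p between 0.2 and 1). With 3 libraries in a group, such an overlap does not show equal shares. ACTL6B had at most 2 counts in a library and the BICRA pair 24 to 48, so that these shares could hardly show a difference. SMARCD1 made up 34.2% ± 2.17 of the SMARCD counts in TCam-2 and 59.2% ± 2.17 in 2102 EP with I-BRD9, and 33.6% ± 3.83 and 59.2% ± 3.59 with DMSO, with SMARCD2 taking most of the rest. ARID1B made up 46.5% ± 1.48 of the ARID1 counts in TCam-2 and 32.8% ± 1.81 in 2102 EP with I-BRD9, and 43.4% ± 0.764 and 32.2% ± 1.65 with DMSO. DPF1 made up 13.4% ± 2.45 of the DPF counts in TCam-2 and 65.4% ± 4.57 in 2102 EP with I-BRD9, and 16.8% ± 1.87 and 84.4% ± 3.95 with DMSO (SD, n = 3 each). None of SMARCD1, ARID1B and DPF1 overlapped between the lines in those shares, and the exact permutation test gave its smallest p of 0.1 for each (0.178 after adjustment over 64 tests), which this design cannot go below. The share of SMARCA2 among the ATPase counts was 15.2% in TCam-2 and 4.91% in 2102 EP with I-BRD9 (exact permutation p = 0.1), and 9.34% in TCam-2 and 9.42% in 2102 EP with DMSO (exact permutation p = 1).

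**Figure D5:**
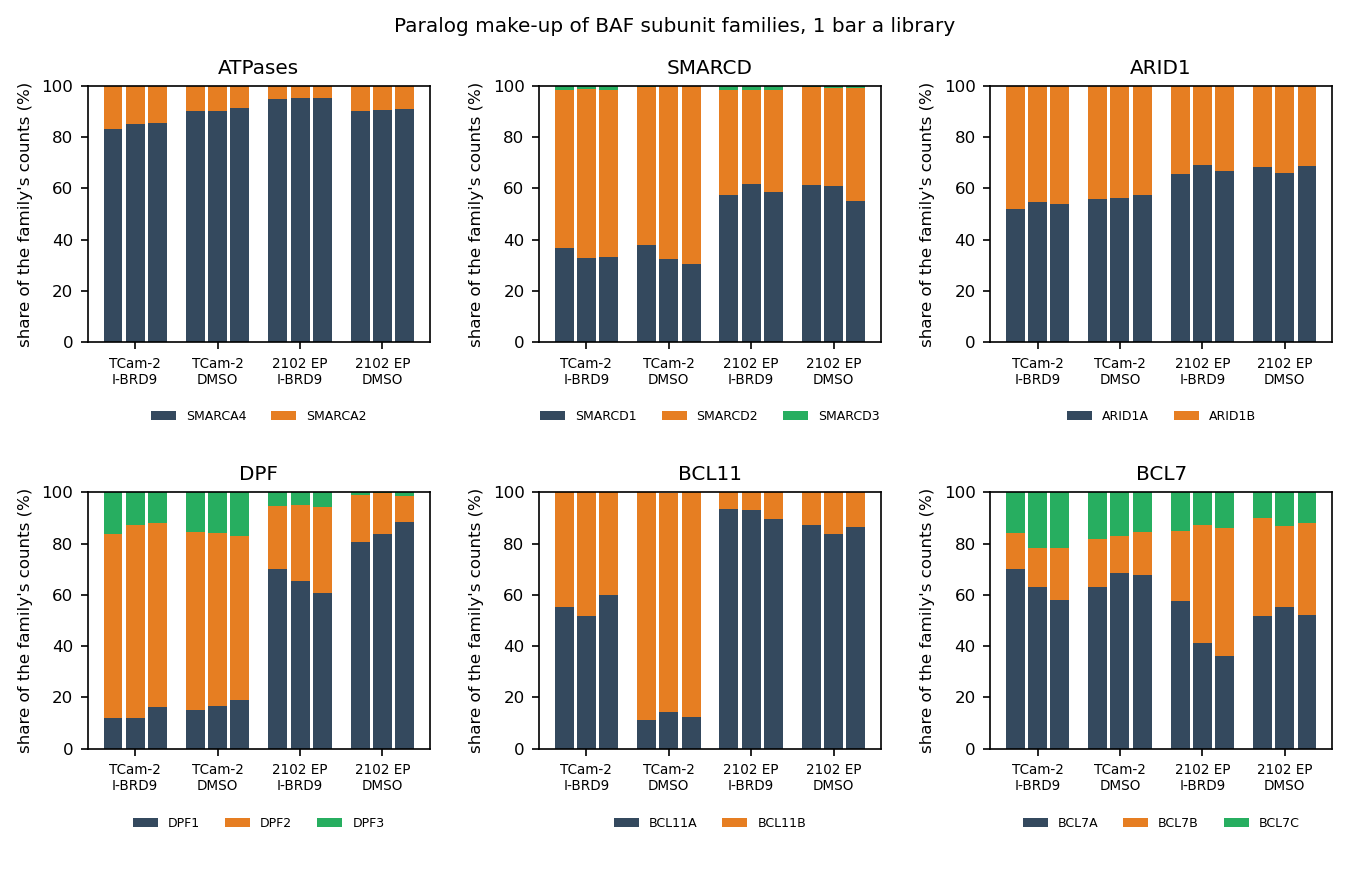
Share of each paralog in the counts of its family, 1 bar a library, for 6 families. With I-BRD9, BCL11B fills 44.3% of the BCL11 counts in TCam-2 and 7.86% in 2102 EP, and with DMSO it fills 87.5% in TCam-2 and 14.2% in 2102 EP.

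Other chromatin remodellers were counted for context. The calls among all genes were 31.8% in TCam-2 and 36.8% in 2102 EP. Of 14 tested genes of ISWI complexes, 1 rose and 4 fell in TCam-2 and 1 rose and 6 fell in 2102 EP, 35.7% and 50% called, with median log2 fold changes of −0.16 and −0.21. Of 17 tested NuRD and CHD genes, 7 were called in TCam-2, each of them lower, and 2 rose and 9 fell in 2102 EP, 41.2% and 64.7% called, with medians of −0.21 and −0.24. Of 26 genes of the INO80, SRCAP and TIP60 complexes, 2 rose and 4 fell in TCam-2 and 2 rose and 5 fell in 2102 EP, 23.1% and 26.9% called, with medians of −0.05 and −0.002. The medians of the ISWI and NuRD lists lay on the same side of 0 as those of the BAF genes and at a like distance. The difference between BAF and the other remodellers was not tested.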

How the data were processed

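RNA of the 12 samples was made into QuantSeq 3′ libraries, per the labels' protocols. The authors deposited 1 table of estimated counts per gene. The submitters' processing notes name Trim Galore, STAR 2.7.11b, Salmon 1.9.0, R 4.2.0 and DESeq2, with GRCh38. The order of these tools, the annotation and whether strand was used were not given in the sources used here.

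Estimated counts were rounded and fitted in edgeR 4.0.16 (R 4.3.3) with TMM scaling, filterByExpr and 4 group means over all 12 libraries. The quasi-likelihood test was robust, with 8 residual degrees of freedom and a common biological coefficient of variation of 0.127. Benjamini-Hochberg adjustment ran over 15614 genes within each of 5 comparisons, and a gene was called under 0.05. DESeq2 1.42.0, limma 3.58.1 (voom), other scalings, no low-count filter, blocks, fits on the compared groups and leaving out each library were alternatives. The scripts were tested on simulated counts with known changes.

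Paralog shares were set against each other with exact 2-sided permutation tests, and sums over assemblies were described without a test. Reads were taken as shared between genes where an estimated count lay over 0.01 away from a whole number. Coordinates came from GENCODE release 29, in which 58228 of the 63241 gene identifiers (92.1%) and all 30 subunit genes were found, and promoter windows from RefSeq (GRCh38.p14), in which ACTL6A, ARID2, SMARCC1 and SMARCC2 were not matched. Overlaps were read from the last exons of GENCODE transcripts.

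The 30 subunit genes and the lists of other remodellers and markers were chosen with earlier results of these data known. All 30 genes are named, with values in every library for those called between I-BRD9 and DMSO or more than 2-fold apart between the lines, and by range and count for the rest, which rests on a rule written with that choice. The labels give no shared source for libraries of the same replicate number, so the number was a block only in an alternative fit. Deviations from the group mean correlated between same-numbered I-BRD9 and DMSO libraries at 0.16, 0.034 and 0.127 in TCam-2 and −0.119, 0.096 and −0.079 in 2102 EP. Between libraries of different number the correlations ran from −0.181 to 0.048 in TCam-2 and from −0.119 to 0.175 in 2102 EP. Between I-BRD9 and DMSO libraries of the same run of codes, the correlations in TCam-2 were 0.018, −0.078 and 0.127. Whether the numbers or the runs pair the libraries was not tested.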

Additional observations from a re-analysis of the deposited data

Results flagged for a closer look

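For 7 subunit genes the response to I-BRD9 differed between the lines in a test of the difference itself (edgeR's quasi-likelihood test, TCam-2 minus 2102 EP, adjusted p under 0.05). Beside them, 13.1% of all genes passed the same test. SMARCA2 differed by 1.60 on the log2 scale, higher with I-BRD9 in 3 of 3 TCam-2 libraries and lower in 3 of 3 2102 EP libraries than in any DMSO library of the line. BCL11A differed by 1.05, with the same pattern of libraries. SMARCD3 differed by 2.03 and rose in both lines, from counts of 1 to 3 in the TCam-2 libraries with DMSO. DPF1 differed by 0.83 and fell in both lines, and BCL11B differed by −1.12 and fell in both. DPF3 differed by −2.13, higher with I-BRD9 in 3 of 3 2102 EP libraries, and shared reads with other genes in 11 of 12 libraries. ARID2 differed by 0.64 and fell in 2102 EP.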

How the results depend on the processing

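Among the calls of single genes, 936 comparisons of an alternative with the reported value left the call in place and 106 lost it, with no change of direction. In 16 such comparisons a gene that was not called became called, and in 61 a value changed sign without being called in either. Called under each alternative run were 6 of 10 genes in TCam-2 (ARID1A, BCL11B, BCL7A, DPF1, SMARCA2 and SMARCD3), 8 of 15 in 2102 EP (ARID2, BCL11A, BCL11B, DPF1, DPF3, PBRM1, PHF10 and SMARCA2), 4 of 7 for the difference (BCL11A, BCL11B, DPF3 and SMARCA2), 17 of 21 between the lines with I-BRD9 and 19 of 19 with DMSO. Leaving out 1 library, edgeR called 6 to 8 genes in TCam-2 in place of 10, with 6 without I-BRD9 replicate 1 or replicate 2, and 9 to 12 in 2102 EP in place of 15, with 9 without I-BRD9 replicate 3. The share of all genes called fell too. It was 25.7% to 27% in TCam-2 in place of 31.8%, and 29.4% to 33.1% in 2102 EP in place of 36.8%. With fewer libraries the fit has fewer degrees of freedom. The low-count filter was also applied anew, and 16096 to 16145 genes were tested in place of 15614. The cause of the lost calls was not tested. With the replicate number as a block, the genes called were 7 in TCam-2, 14 in 2102 EP and 6 for the difference. Between the lines they were 21 with I-BRD9 and 19 with DMSO. Of all genes, 30.2%, 35.3%, 11.8%, 61.3% and 61.5% were called in the same order. With runs of library codes as a block the counts were 8, 14, 6, 21 and 20. Beside them, 30.8%, 35.8%, 12.3%, 61.5% and 61.8% of all genes were called. With library totals in place of TMM, the sums in TCam-2 were 203 CPM with I-BRD9 and 321 CPM with DMSO for canonical BAF, 542 and 496 CPM for polybromo BAF and 129.9 and 141 CPM for non-canonical BAF, as the scaling itself sets, and the polybromo libraries of TCam-2 no longer overlapped. Unrounded counts moved no share of paralogs beyond the spread between libraries. Counting error is widest beside the values of SMARCD3, BICRA, BICRAL, DPF3 in 2102 EP and ACTL6B, which had few counts.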
